A study of Macaca fascicularis with 6 samples.

Results

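The molecular chaperones were described here as 64 genes of the cynomolgus monkey (Macaca fascicularis) cornea, taken from the 14623 genes in the 6 gene tables because their names begin with HSPA, HSPB, HSPD, HSPE, HSPH, HSP90, DNAJ, BAG or CCT followed by a number. Corneal cells came from uninjured corneas (day 0) and from corneas at day 1 and day 3 after injury, with 2 samples in each of the 3 groups, all of wild-type genotype. Cells were captured singly in droplets (10x Genomics), and whole cDNA molecules were read by the long-read method HIT-scISOseq. The labels also name a short-read sequencing kit and do not say which reads the gene counts come from. The labels give no age, batch, kind of injury or animal, so the spread behind each p-value is that between samples and may be only technical.

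Chaperones bind unfolded or partly folded proteins and keep them from aggregating. HSP70 proteins do this in cycles of ATP binding and hydrolysis that J-domain proteins (DNAJ) start and nucleotide exchange factors such as BAG and HSP110 proteins reset, and HSP90 then completes the folding of many signalling proteins. Each compartment has its own set: the cytosol adds small heat shock proteins and the CCT ring that folds actin and tubulin, the endoplasmic reticulum (ER) holds BiP and GRP94 for secreted and membrane proteins, and the mitochondrial matrix holds HSP60. The corneal epithelium faces light, drying and abrasion, and after a wound its cells spread, migrate and then divide.

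By compartment the members were 9 cytosolic and nuclear HSP70, HSP110 and HSP90 genes, 4 small heat shock proteins, 16 cytosolic or nuclear DNAJ genes, 7 BAG and HSP70-binding co-chaperones, 7 CCT subunits, 12 ER members, 7 mitochondrial members and 2 others. HSPA8, HSPA9, HSPE1, HSPA1A, HSPA1B, DNAJA1, DNAJB11, DNAJC7 and CCT6A, among other genes of these families, were not analysed here. A low-count filter left 62 members in the test, and HSPB6 and DNAJB5 stayed below it.

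Each sample held 1068 to 1565 cell barcodes and 3733442 to 4928103 counts. Each sample's counts were added up over its barcodes, so fewer cells of a type and less RNA per cell cannot be told apart. Only 8 of the 7895 barcodes occurred in more than 1 sample. Several broad measures moved with the groups. Mitochondrial transcripts made up 9.12% and 9.32% of uninjured counts, 7.23% and 7.28% of those at day 1 and 4.52% and 4.39% of those at day 3. Immediate early genes, which cell dissociation often raises, summed to 14901 and 15413 CPM without injury (CPM are counts relative to library size, scaled between samples by the TMM method unless said otherwise). At day 1 they summed to 7336 and 7404 CPM and at day 3 to 7207 and 7149 CPM, with 12 of 13 listed. Basal and limbal markers (13 of 13 listed) summed to 13747 to 14315 CPM, then 8706 to 8735 at day 1 and 37509 to 39069 at day 3. Mesenchymal-like markers such as VIM and FN1 (6 of 6 listed) summed to 194 to 237 CPM, 268 to 284 and 1726 to 1879 CPM, with COL1A2 and COL3A1 at 0 in both uninjured samples. Conjunctival markers (6 of 11 listed) ran from 9467 to 9892 CPM in the uninjured group, 12869 to 15996 at day 1 and 24025 to 24223 at day 3. Immune markers (7 of 8 listed) stayed between 130.1 and 248 CPM in all samples, with CD3D at 0 in the uninjured and day 3 groups. The part of these shifts in the results below was not tested.

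At day 1 the chaperones that were higher than in the uninjured cornea were spread over the cytosol, the ER and the mitochondria. Of the 62 members tested, 32 rose, 11 fell and 19 did not pass (edgeR quasi-likelihood test, Benjamini-Hochberg adjusted p under 0.05 over 12294 genes). Over all genes tested 62.2% passed, 30.5% higher and 31.7% lower. The median log2 change was 0.31 over the members and -0.06 over all genes. Scaling to total counts alone moved the median of all genes to -0.40, and 21 members were then higher and 15 lower.

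At day 3 against the uninjured cornea, 23 members rose, 9 fell and 30 did not pass, where 55.2% of all genes passed, 28.8% higher and 26.4% lower. The share of members that passed, in either direction, is close to the background. The median log2 change was 0.18 over members and -0.03 over all genes. With total counts alone the median of all genes was -0.46, and the members split into 14 higher and 25 lower, so the direction of the balance at day 3 turned with the scaling. Between day 1 and day 3, 14 members rose and 20 fell, with 59.3% of all genes passing, 30.5% higher and 28.8% lower, and with total counts alone 12 rose and 26 fell. The day 1 and day 3 comparisons share the uninjured samples. In the 3 comparisons every member that passed had groups whose samples did not overlap, as had 10, 16 and 19 of those that did not pass.

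**Figure D1:**
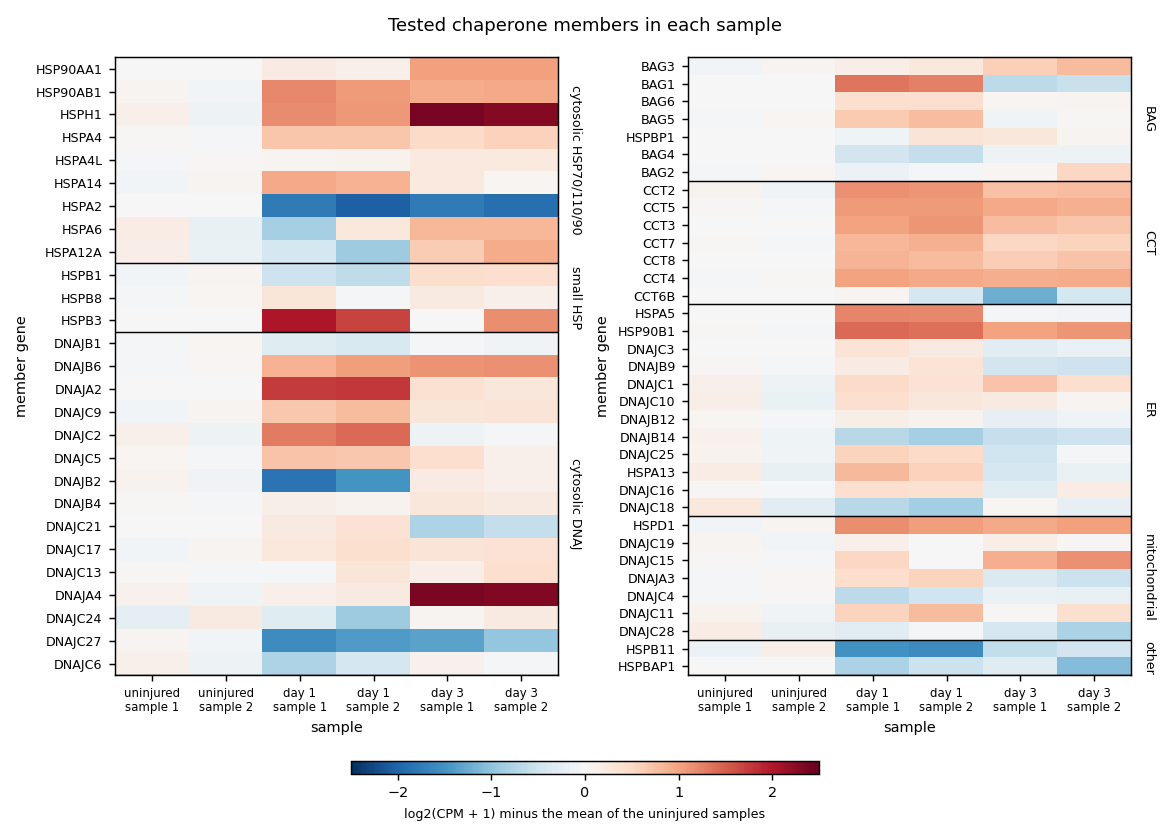
Heat map of 62 tested members (rows, grouped by compartment) in the 6 samples (columns). Colour gives log2(CPM + 1) minus the mean of the uninjured samples, from blue (lower) to red (higher). CCT2, HSP90B1 and HSPD1 are red at day 1 and day 3, DNAJA2 is redder at day 1 than at day 3, DNAJC2, BAG1 and HSPA5 are red at day 1 only, and HSPH1 and DNAJA4 are darkest at day 3.

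Of the ER members, 8 of 12 rose at day 1 and 2 fell, with a median log2 change of 0.40, and 2 rose and 2 fell at day 3, with a median of -0.12. Of all genes 30.5% were higher and 31.7% lower at day 1, and 55.2% passed at day 3, above the share of ER members that did. Under total counts 2 rose and 2 fell at day 1, and 1 rose and 7 fell at day 3. HSPA5 encodes BiP, the HSP70 of the ER that holds unfolded secretory proteins and restrains the stress sensors of the unfolded protein response. Its level was 335 and 331 CPM in the uninjured samples, 777 and 766 CPM at day 1 and 328 and 316 CPM at day 3. The day 1 samples stood far above all the others, and the day 3 samples lay just below the uninjured ones. The log2 change was 1.21 ± 0.08 (SE) at day 1 (adjusted p = 1.1e-07), -0.05 ± 0.08 at day 3 (adjusted p = 0.61) and -1.26 ± 0.08 from day 1 to day 3 (adjusted p = 1.5e-07). The day 3 change was -0.47 and passed with total counts alone.

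HSP90B1, or GRP94, is the HSP90 of the ER and folds integrins and Toll-like receptors. It went from 251 and 240.4 CPM in the uninjured samples to 659 and 642 CPM at day 1 and 494 and 532 CPM at day 3, with no overlap between any groups. It was higher than in the uninjured samples by 1.06 ± 0.08 on the log2 scale at day 3 (adjusted p = 6.6e-07) and by 1.40 ± 0.08 at day 1 (adjusted p = 5.4e-08). Day 3 was lower than day 1 (-0.34 ± 0.08). The ER J proteins had smaller log2 changes. DNAJC3, an ER co-chaperone of BiP, measured 54.8 and 54.4 CPM, 69.4 and 64.4 CPM at day 1 and 45.1 and 48.3 CPM at day 3. The log2 change of 0.30 ± 0.09 at day 1 was -0.04 and did not pass with total counts alone. DNAJB9, which helps to clear misfolded ER proteins, measured 48.2 and 46.2 CPM, 54.2 and 60.5 CPM at day 1 and 34.3 and 32.6 CPM at day 3. Its log2 change was 0.28 ± 0.09 at day 1 (adjusted p = 0.025; -0.06 and not called with total counts alone) and -0.49 ± 0.10 at day 3 (adjusted p = 0.0017). The day 1 call of DNAJC3 was also lost without the second uninjured sample or the first day 1 sample (adjusted p = 0.057 to 0.10). That of DNAJB9 was lost without either uninjured sample or the second day 1 sample (adjusted p = 0.056 to 0.17).

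HSPA13, an HSP70-like ATPase of microsomes, was at 9.36 and 6.98 CPM, 15 and 12.5 CPM at day 1 and 5.76 and 7.11 CPM at day 3. DNAJC25 was at 13.0 and 11.3 CPM, 18.3 and 17.2 CPM at day 1 and 8.29 and 11.8 CPM at day 3. For both the day 1 samples were the highest. Their log2 changes of 0.77 ± 0.21 and 0.56 ± 0.18 at day 1 were called with TMM scaling but not with total counts alone. From day 1 to day 3 both fell (log2 -1.11 ± 0.23 and -0.83 ± 0.19), the second not called with DESeq2 (adjusted p = 0.065). The day 1 call of HSPA13 was lost without the second uninjured sample or the first day 1 sample (adjusted p = 0.067 to 0.077). That of DNAJC25 was lost without the second uninjured sample or the first day 1 sample (adjusted p = 0.075 to 0.11). DNAJC1, a membrane J protein near the translocon, measured 35.5 and 29.3 CPM, 45.2 and 41.6 CPM at day 1 and 53.4 and 43.4 CPM at day 3. It was higher at both times, by 0.43 ± 0.13 and 0.59 ± 0.13 on the log2 scale, and neither call held with total counts alone. The day 1 call was also lost without the second uninjured sample or the first day 1 sample (adjusted p = 0.077 to 0.14). DNAJC10, a J-domain disulfide reductase, passed at day 1 with 0.36 ± 0.14 (adjusted p = 0.038). That call too was lost with total counts alone and without the second uninjured sample or the first day 1 sample (adjusted p = 0.20 to 0.27). In the other direction, DNAJB14, a J protein of the ER membrane, fell from 37.3 and 31.7 to 20.9 and 18.9 CPM at day 1 and 22.8 and 23.8 CPM at day 3 (log2 -0.78 ± 0.14 and -0.56 ± 0.13). The day 3 call of DNAJB14 was not made with DESeq2 (adjusted p = 0.084). DNAJC18 fell by 0.97 at day 1 from 6.58 and 4.19 to 2.86 and 2.5 CPM (adjusted p = 0.041). This call was lost without the first uninjured sample or either day 1 sample or the first day 3 sample (adjusted p = 0.051 to 0.26). DNAJB12 and DNAJC16 passed in none of the 3 comparisons.

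Of 18 other ER chaperone pathway genes, 10 rose and 1 fell at day 1, and 8 rose and 3 fell at day 3 (4 and 4, then 4 and 6, with total counts alone). Over all genes 62.2% passed at day 1 (30.5% higher, 31.7% lower) and 55.2% at day 3 (28.8% higher, 26.4% lower). The share of these ER genes that passed at day 1, in either direction, was no higher than that of all genes. ATF6, the membrane-bound transcription factor that induces BiP, was 1.12 ± 0.12 higher on the log2 scale at day 1 (24.1 and 29.8 to 58.2 and 59.7 CPM) and not called at day 3 (33.9 and 29.2 CPM). HYOU1, an ER HSP110, had a log2 change of 0.72 ± 0.09 at day 1 and -0.52 ± 0.11 at day 3. For MANF, a secreted ER stress protein, it was 0.71 ± 0.09 at day 1. Among those that rose at day 3 were SERPINH1 (1.97 ± 0.16), the collagen chaperone HSP47, SDF2L1 (1.38 ± 0.12) and P4HB (1.11 ± 0.08), a disulfide isomerase that is also a subunit of collagen prolyl hydroxylase. HERPUD1, a scaffold of ER-associated degradation, went from 272 and 290.1 to 337 and 320.5 CPM at day 1 and 137 and 152 CPM at day 3 (log2 -0.97 ± 0.08 at day 3).

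**Figure D2:**
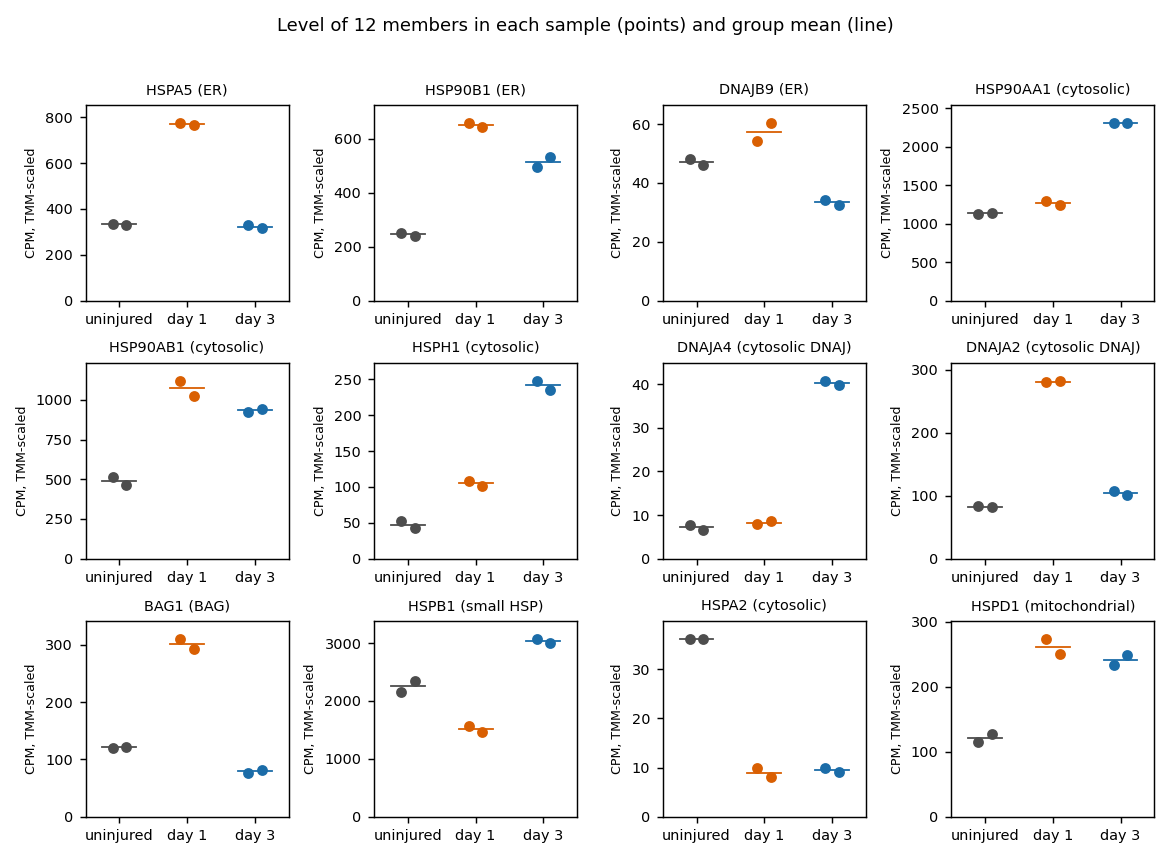
Levels in scaled CPM (vertical axes, starting at 0) of single members in the uninjured, day 1 and day 3 samples. Points are samples and lines are group means. HSPA5, DNAJA2 and BAG1 peak at day 1, HSPH1, DNAJA4 and HSP90AA1 are highest at day 3, and HSPB1 is lowest at day 1.

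Over the whole cytosol and nucleus, 21 of 41 tested members rose and 7 fell at day 1, and 19 rose and 5 fell at day 3 (18 and 9, then 11 and 12, with total counts alone). Of all genes 62.2% passed at day 1, 30.5% higher and 31.7% lower. At day 3 55.2% passed, 28.8% higher and 26.4% lower. The shares of these 41 members that passed, in either direction, lie little above those of all genes. Of 9 cytosolic HSP70, HSP110 and HSP90 genes, 4 rose and 1 fell at day 1, and 6 rose and 1 fell at day 3 (4 and 2, then 3 and 2, with total counts alone). The day 1 count lies below the 62.2% of all genes that passed, and the day 3 count above the 55.2%. HSP90AA1, the stress-inducible HSP90, was at 1131 and 1135 CPM in the uninjured samples, 1300.0 and 1242 CPM at day 1 and 2311 and 2303 CPM at day 3. The day 3 samples lay far above the other 4, with a log2 change of 1.03 ± 0.07 (adjusted p = 5e-07). The day 1 value of 0.17 ± 0.07 did not pass (adjusted p = 0.071; 0.025 with DESeq2). HSP90AB1, the constitutive HSP90, went from 512 and 467 CPM to 1120.4 and 1024 CPM at day 1 and 926 and 943 CPM at day 3. Both injured groups stood above the uninjured samples (log2 1.13 ± 0.08 and 0.93 ± 0.08). The difference between them did not pass (-0.20 ± 0.08, adjusted p = 0.058).

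HSPH1, the HSP110 that recharges HSP70 with ATP and works in disaggregation, was the only member that rose in all 3 comparisons. It measured 52.0 and 43.1 CPM in the uninjured samples, 108 and 102 CPM at day 1 and 248 and 235 CPM at day 3, with the 3 groups fully apart. The log2 change was 1.15 ± 0.10 at day 1, 2.35 ± 0.09 at day 3 (adjusted p = 3.9e-09) and 1.20 ± 0.09 between the days. Its relative HSPA4 was at 81.7 and 78.1 CPM, 129 and 129 CPM at day 1 and 111 and 120.4 CPM at day 3. Its log2 change was 0.69 ± 0.08 at day 1 and 0.54 ± 0.08 at day 3, and the day 3 call was lost with total counts alone. HSPA4L passed at day 3 with 0.25 ± 0.07, which became -0.18 without a call under total counts alone and was lost without any 1 of the uninjured and day 3 samples (adjusted p = 0.053 to 0.10). HSPA14, which with DNAJC2 forms the ribosome-associated chaperone complex, rose at day 1 from 35.3 and 39.2 to 72.9 and 68.5 CPM, and stood at 44.0 and 38.5 CPM at day 3. The log2 changes were 0.92 ± 0.10 and 0.15 ± 0.11, the second not called.

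HSPA2, an HSP70 best known from sperm cells, fell and stayed low. It measured 36.1 and 36.1 CPM in the uninjured samples, 9.92 and 8.05 CPM at day 1 and 9.90 and 9.07 CPM at day 3. The log2 changes were -1.99 ± 0.15 (adjusted p = 5.3e-07) and -1.92 ± 0.15 (adjusted p = 8e-07). HSPA6, an HSP70 that is nearly absent without heat or other stress, was at 5.98 and 4.36 CPM, 2.42 and 6.38 CPM at day 1 and 9.90 and 9.81 CPM at day 3. The day 3 samples were highest, but the log2 change of 0.94 ± 0.32 (adjusted p = 0.027) did not pass with total counts alone, with DESeq2 or without the second uninjured sample or either day 3 sample (adjusted p = 0.089 to 0.16). HSPA12A, an HSP70 relative, cleared the low-count filter only with the help of its day 3 counts (15 and 18), so a rise towards day 3 was the likelier outcome. Its other counts were low, 11 and 9 in the uninjured samples and 5 and 2 in those of day 1. It passed from day 1 (1.1 and 0.555 CPM) to day 3 (3.45 and 4.41 CPM) with 2.16 ± 0.59. That call was lost without the second day 3 sample (adjusted p = 0.065).

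HSPB1, or HSP27, a small heat shock protein that binds unfolding proteins and actin filaments, changed in opposite directions at the 2 times. It was at 2155 and 2352 CPM in the uninjured samples, 1566 and 1456 CPM at day 1 and 3071 and 2998 CPM at day 3. The groups did not overlap, and day 1 was the lowest. The log2 change was -0.58 ± 0.08 at day 1 (adjusted p = 7.5e-05), 0.43 ± 0.08 at day 3 (adjusted p = 8.2e-04) and 1.01 ± 0.08 between the days. With total counts alone the day 1 fall was -0.91 and the day 3 rise was 0.01 and not called. HSPB8, the partner of BAG3 in chaperone-assisted autophagy, passed in none of the comparisons, at 74.1 and 80.4 CPM, 95.4 and 75.2 CPM at day 1 and 90 and 83.9 CPM at day 3. HSPB3 had 0 counts in both uninjured samples, 14 and 8 counts in those of day 1 and 0 and 5 in those of day 3. The day 1 sum was at least 7.65-fold higher than the limit of 3 counts over the uninjured group, and HSPB3 passed the low-count filter through its day 1 counts alone. It is among the members counted as higher at day 1.

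Among 15 tested cytosolic and nuclear DNAJ genes, 7 rose and 4 fell at day 1, and 5 rose and 2 fell at day 3. Of all genes 62.2% passed at day 1, and at day 3 55.2% passed and 28.8% were higher. The share of these DNAJ genes that passed at day 3 lies below the 55.2%, and the share that rose lies little above the 28.8%. With total counts alone 5 rose and 5 fell at day 1 and 2 rose and 4 fell at day 3. DNAJA2, a general HSP70 partner in folding and mitochondrial import, rose at both times and was highest at day 1. It went from 83.5 and 82.0 CPM to 280.1 and 282 CPM at day 1 and 108 and 102 CPM at day 3. The day 1 samples lay far above the rest (log2 1.77 ± 0.07, adjusted p = 4.9e-09). The day 3 gain of 0.34 ± 0.08 turned to -0.08 and was not called with total counts alone. DNAJC2, the ribosome-bound J protein that pairs with HSPA14, measured 43.8 and 37.0 CPM, 101 and 109 CPM at day 1 and 36.6 and 39.0 CPM at day 3. Its log2 change was 1.38 ± 0.10 at day 1 and -1.47 ± 0.10 from day 1 to day 3.

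DNAJB6, which suppresses aggregation and binds keratin filaments, rose at both times, from 116 and 121 CPM to 218 and 246 CPM at day 1 and 261 and 265 CPM at day 3 (log2 0.96 ± 0.08 and 1.14 ± 0.08). DNAJA4 rose only at day 3, from 7.77 and 6.63 CPM in the uninjured samples and 7.93 and 8.60 CPM at day 1 to 40.8 and 39.7 CPM. The log2 change was 2.49 ± 0.15 (adjusted p = 7.8e-08). DNAJB1, the main inducible HSP40, was lowest at day 1, at 351 and 372 CPM, 294 and 277 CPM at day 1 and 350.3 and 342 CPM at day 3. Its log2 change was -0.34 ± 0.08 at day 1 (adjusted p = 0.0024) and -0.06 ± 0.08 at day 3, not called. The day 3 change was -0.49 and was called with total counts alone. DNAJB2, which carries clients to the proteasome, fell from 44.8 and 39.9 to 11 and 14.4 CPM at day 1 (log2 -1.75 ± 0.15). At day 3 it was at 48.8 and 46.3 CPM, higher than at day 1 by 1.92 ± 0.15.

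DNAJC9, a histone co-chaperone, rose by 0.73 ± 0.08 at day 1 (51.2 and 55.8 to 85.9 and 93.0 CPM). Its day 3 value of 0.31 ± 0.09 (65.9 and 66.7 CPM) became -0.12 without a call under total counts alone and was lost without the first uninjured sample or the second day 3 sample (adjusted p = 0.057 to 0.092). DNAJC5, the cysteine string protein of secretory vesicles, was 0.71 ± 0.11 higher at day 1 and not called at day 3. DNAJC21, a factor of large ribosomal subunit maturation, measured 35.5 and 36.3 CPM, 42.3 and 46.1 CPM at day 1 and 20.5 and 23.3 CPM at day 3. Its day 1 change of 0.30 ± 0.11 turned to -0.04 with total counts alone and was lost without any 1 of the uninjured and day 1 samples (adjusted p = 0.056 to 0.17). Its day 3 change of -0.71 ± 0.12 was called under both scalings. DNAJC17, a splicing-associated J protein, passed at 0.34 ± 0.12 and 0.35 ± 0.12, and with total counts alone these were -0.00 and -0.07 and not called. The day 1 call of DNAJC17 was also lost without the first uninjured sample or the second day 1 sample (adjusted p = 0.11 to 0.14). Its day 3 call was lost without the first uninjured sample or either day 3 sample (adjusted p = 0.062 to 0.10). DNAJC27, which joins a small GTPase to a J domain, fell from 9.56 and 8.72 CPM to 2.42 and 2.77 CPM at day 1 and 2.99 and 4.17 CPM at day 3 (log2 -1.81 ± 0.30 and -1.35 ± 0.28). DNAJC24, a diphthamide synthesis factor, passed at day 1 at -0.60 ± 0.22, and this call was lost without the second uninjured sample or the second day 1 sample (adjusted p = 0.19 to 0.28). DNAJB4, DNAJC6 and DNAJC13 passed in no comparison over all cells.

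Of the BAG family and HSPBP1, which release nucleotide or client from HSP70, 3 of 7 rose and 1 fell at day 1, and 1 rose and 1 fell at day 3 (2 and 1, then 1 and 4, with total counts alone). Both counts are below the 62.2% and 55.2% of all genes that passed. BAG1, which links HSP70 to the proteasome, rose and then fell. It was at 121 and 122 CPM in the uninjured samples, 310.3 and 293 CPM at day 1 and 77.1 and 82.1 CPM at day 3. It stood above the uninjured samples at day 1 (log2 1.31 ± 0.07, adjusted p = 4.9e-08) and below them at day 3 (-0.61 ± 0.08, adjusted p = 6.8e-05). BAG3, which directs clients to autophagy, was at 129 and 141 CPM, 152 and 161 CPM at day 1 and 205 and 234 CPM at day 3. It passed in the comparisons with day 3 (0.70 ± 0.09 against uninjured and 0.49 ± 0.09 against day 1). BAG5 (34.3 and 37.0 to 56.9 and 61.3 CPM, log2 0.72 ± 0.10) and BAG6 (71.9 and 71.7 to 95.2 and 96.8 CPM, log2 0.42 ± 0.07), the latter a guard of tail-anchored proteins, rose at day 1 and were not called at day 3. BAG6 was not called at day 1 with total counts alone. BAG4 fell by 0.54 at day 1, a call not made with DESeq2 (adjusted p = 0.16), and BAG2 and HSPBP1 passed nowhere.

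CCT2, CCT3, CCT4, CCT5, CCT7 and CCT8, which sit in one hetero-oligomeric ring, all rose at day 1, by 0.83 to 1.12 on the log2 scale, and at day 3, by 0.54 to 0.92. The background of genes that rose was 30.5% at day 1 and 28.8% at day 3. CCT2 measured 118 and 103 CPM in the uninjured samples, 243 and 237 CPM at day 1 and 185 and 189 CPM at day 3. CCT5 measured 107 and 102 CPM, 219.7 and 220.3 CPM at day 1 and 201 and 195 CPM at day 3. For each of the 6 subunits every injured sample lay above both uninjured samples. All 6 kept their call at day 1 with total counts alone, and at day 3 CCT7 lost it (0.12). From day 1 to day 3, CCT2, CCT3 and CCT7 fell (-0.36 ± 0.08, -0.32 ± 0.07 and -0.32 ± 0.07). CCT6B, a subunit form best known from testis, was at 5.58 and 5.76 CPM, 5.95 and 3.88 CPM at day 1 and 1.84 and 3.92 CPM at day 3. Its day 3 value of -0.98 ± 0.39 (adjusted p = 0.048) was lost under 8 alternative settings, among them the fits without either uninjured sample or the first day 3 sample (adjusted p = 0.11 to 0.33). Since these subunits work as one complex, the 6 genes are not 6 separate observations.

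Among 19 other cytosolic chaperone pathway genes, 12 rose and 4 fell at day 1, and 10 rose and 4 fell at day 3 (6 and 6, then 2 and 9, with total counts alone). Of all genes 62.2% passed at day 1, 30.5% higher and 31.7% lower. At day 3 55.2% passed, 28.8% higher and 26.4% lower. Prefoldin passes unfolded actin and tubulin to CCT, and its subunits PFDN2 (1.32 ± 0.09 at day 1, 102 and 111 to 285 and 246 CPM) and PFDN4 (1.27 ± 0.11 at day 1 and 1.51 ± 0.11 at day 3) rose. The heat shock factors, transcription factors of heat shock genes, did not move together, and HSF2 and HSF4 fell at both times. HSF2 went from 30.1 and 28.1 CPM to 7.49 and 9.43 CPM at day 1 and 8.98 and 10.3 CPM at day 3 (log2 -1.79 ± 0.16 and -1.59 ± 0.15). HSF4 went from 7.77 and 6.28 CPM to 1.98 and 2.77 CPM at day 1 and 1.38 and 0 CPM at day 3 (log2 -1.57 ± 0.47 and -3.25 ± 0.61), and the day 1 call was not made with DESeq2 (adjusted p = 0.14). HSF4 passed the low-count filter through its uninjured counts, so a fall was the likelier outcome. It had 39 and 36 counts there, 9 and 10 at day 1 and 6 and 0 at day 3. HSF1, the main factor of the heat shock response, was added after its values were seen. It was higher at day 1, at 44.4 and 51.8 CPM in the uninjured samples, 73.2 and 71.9 CPM at day 1 and 54.8 and 44.6 CPM at day 3. The log2 change was 0.59 ± 0.11 at day 1 (adjusted p = 6.4e-04; 0.064 with total counts alone) and 0.05 ± 0.12 at day 3 (adjusted p = 0.76), where total counts alone gave a called -0.38. FKBP5, an HSP90 co-chaperone, fell at day 3 (-1.20 ± 0.17).

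Of the 7 mitochondrial members, 3 rose and 1 fell at day 1, and 2 rose and 1 fell at day 3. Neither count exceeds the 62.2% (day 1) and 55.2% (day 3) of all genes that passed. The balance turned with total counts alone, to 1 and 2 at day 1 and 2 and 4 at day 3. HSPD1, or HSP60, forms the folding chamber of the matrix and carried 51.7% of the members' mitochondrial CPM. Its level was 116 and 127 CPM in the uninjured samples, 274 and 250.0 CPM at day 1 and 233 and 249 CPM at day 3, with both injured groups above the uninjured samples. The log2 change was 1.11 ± 0.09 at day 1 and 0.99 ± 0.09 at day 3, and the -0.12 ± 0.08 between the days did not pass. The matrix J protein DNAJA3 rose at day 1 and fell below its starting level at day 3, at 30.1 and 32.4 CPM, 42.8 and 46.6 CPM at day 1 and 24.2 and 21.1 CPM at day 3. Its log2 change was 0.51 ± 0.12 at day 1, not called with total counts alone, and -0.47 ± 0.13 at day 3. The day 3 call was lost without the second uninjured sample or the second day 3 sample (adjusted p = 0.058 to 0.076). DNAJC15, at the protein import motor, was at 37.9 and 35.9 CPM, 53.6 and 36.9 CPM at day 1 and 70.2 and 82.1 CPM at day 3. Its day 1 samples lay apart from each other and the change did not pass, and its day 3 samples were the highest (1.05 ± 0.14, adjusted p = 7.3e-05). DNAJC11, of the inner membrane organising system, rose at day 1 (0.70 ± 0.17, not called with total counts alone), and DNAJC4 fell (-0.60 ± 0.13). The call of DNAJC4 was not made with DESeq2 (adjusted p = 0.054). DNAJC19 and DNAJC28 passed in no comparison.

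Of 10 other mitochondrial chaperone pathway genes, 4 rose and 2 fell at day 1, and 2 rose and 2 fell at day 3 (1 and 4, then 0 and 6, with total counts alone), against 62.2% and 55.2% of all genes passing, so neither count exceeds the background. GRPEL1, the nucleotide exchange factor of the matrix HSP70, stood at 58.4 and 58.3 CPM, 198 and 209 CPM at day 1 and 91.0 and 79.0 CPM at day 3 (log2 1.80 ± 0.09, adjusted p = 1.2e-08, and 0.54 ± 0.09). HSCB, the J protein of iron-sulfur cluster assembly, fell at day 1 (40.6 and 31.9 to 15.4 and 14.7 CPM, log2 -1.26 ± 0.16). HSPB11, which carries an HSPB name but belongs to the intraflagellar transport complex of cilia, also fell, from 41.8 and 51.1 CPM to 15.6 and 15 CPM at day 1 and 29.9 and 32.9 CPM at day 3 (log2 -1.60 ± 0.15 and -0.57 ± 0.13). Its day 3 call was not made with DESeq2 (adjusted p = 0.063).

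Summed by compartment, the members of the ER were higher at day 1 than at day 3, the cytosolic HSP70, HSP110 and HSP90 genes were higher at day 3, and the mitochondrial sums of the 2 times overlapped, though not with total counts alone, where day 1 was higher. The ER sum was 864 and 820.0 CPM in the uninjured samples, 1747 and 1705 CPM at day 1 and 1065 and 1088 CPM at day 3. This was 2.05 times the uninjured mean at day 1 and 1.28 times at day 3. The CCT sum was 615 and 597 CPM, 1201 and 1204 CPM at day 1 and 1019 and 1022 CPM at day 3 (1.98 and 1.68 times). The mitochondrial sum was 294 and 298 CPM, 479 and 444 CPM at day 1 and 438 and 459.8 CPM at day 3 (1.56 and 1.52 times). Both injured groups lay above the uninjured samples in these 3 sums, and the ER sum was nearer to them at day 3 than at day 1. The cytosolic HSP70, HSP110 and HSP90 sum was higher at each time, 1931 and 1881 CPM, 2824 and 2661 CPM at day 1 and 3754 and 3754 CPM at day 3 (1.44 and 1.97 times), and HSP90AA1 made up 56.1% of it. The small heat shock protein sum, 96.4% of it HSPB1, was lowest at day 1, 2231 and 2433 CPM, 1664 and 1533 CPM at day 1 and 3162 and 3084 CPM at day 3. With total counts alone the day 1 and day 3 ratios were 1.63 and 0.955 for the ER, so that the ER sum at day 3 changed direction. They were 1.57 and 1.26 for CCT, 1.24 and 1.13 for mitochondria, 1.14 and 1.47 for the cytosolic HSP70, HSP110 and HSP90 genes, and 0.543 and 1.00 for the small proteins. A sum follows its most counted genes, and neither the sums nor the differences between compartments were tested.

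**Figure D3:**
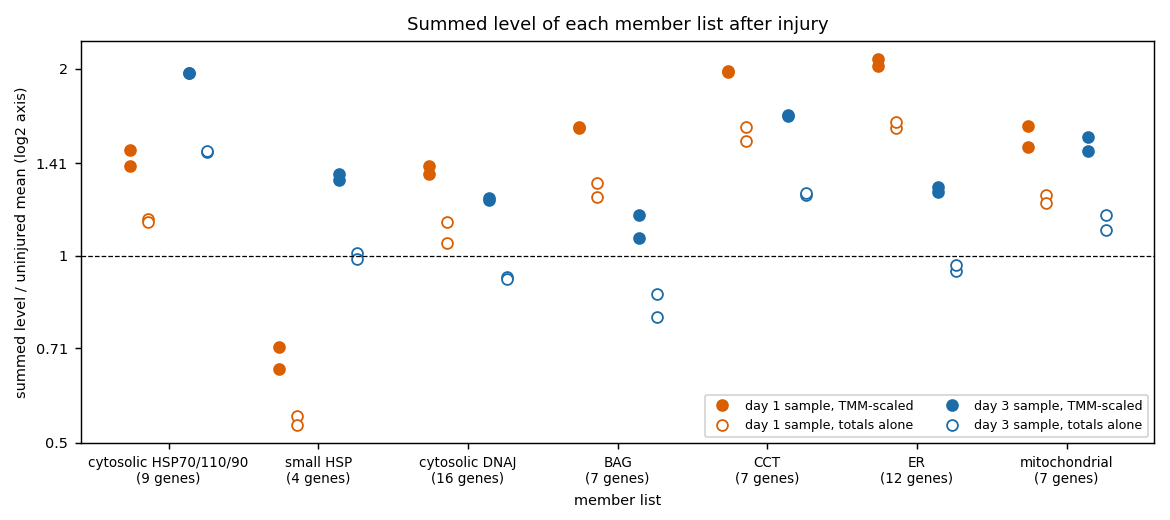
Summed level of the members of each compartment relative to the mean of the uninjured samples (vertical axis, log2 scale) in the day 1 and day 3 samples, by compartment (horizontal axis). Points are samples, filled for TMM-scaled CPM and open for CPM of total counts, and the dashed line marks the uninjured mean. The ER members average 2.05 times the uninjured mean at day 1, CCT members stand at 1.98 and 1.68 times, and small heat shock proteins dip to 0.686 times.

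Cells were grouped by clustering without the members, and clusters were named only from fixed marker lists. The basal-like class held 665 and 558 uninjured cells, then 382 and 322 cells at day 1 and 263 and 249 cells at day 3. The differentiated-like class held 468 and 443, then 616 and 530 cells, and 6 and 4 at day 3, too few to test. Clusters were largely specific to a group. Uninjured basal-like cells lay in the cluster led by GPHA2, PENK and KRT15, day 1 cells in one led by MMP1, MMP10 and MT3, and day 3 cells in one led by VIM, TGM2 and CCDC80. The day 3 cluster scored higher for the mesenchymal-like markers (1.95) than for the basal and limbal ones (1.16). Its name was chosen by score among the epithelial lists only, so its cells may not be plain basal cells. The day 1 cluster had a basal and limbal score of 0.28, the lowest score behind the name of any named cluster. It took its name from that score alone, with none of the basal and limbal markers among its 10 leading genes. In the same way the uninjured differentiated-like cluster was led by CYP26A1, PCK1 and WNK2 and the day 1 one by MUC22, CYP26B1 and FABP3, and the latter also had none of its class's markers among its 10 leading genes. Comparisons within a class are therefore comparisons between different clusters.

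In basal-like cells at day 1, 27 of 54 tested members rose and 11 fell, where 57.2% of all genes passed, 28.6% higher and 28.6% lower. The 27 include HSPB3, with 0 counts in both uninjured samples and 14 and 8 at day 1, tested through its day 1 counts. The 11 include DNAJC27, with 0 counts at day 1. All 6 tested CCT subunits rose, with a median log2 change of 1.39, as did 5 of 10 ER members. Immediate early genes were lower here too, 12 of 12. HSP90B1 went from 285 and 297 to 974 and 1035 CPM (log2 1.78 ± 0.12). HSPA5 went from 389.6 and 415 to 944 and 1082 CPM (1.33 ± 0.12) and CCT5 from 86.3 and 90.9 to 312 and 303 CPM (1.79 ± 0.13). HSPB1 fell from 1482 and 1676 to 492 and 376 CPM, a log2 change of -1.85 ± 0.13 (adjusted p = 2.9e-14). DNAJC27 had 20 and 16 counts in uninjured basal-like cells and 0 in both day 1 samples, at least 7.73-fold lower by the limit of 3 counts over the group. Its day 1 samples could not have carried it past the low-count filter, so a fall was the likelier outcome.

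At day 3 in basal-like cells, 15 members rose and 12 fell, where 45.6% of all genes passed, 24.4% higher and 21.2% lower. From day 1 to day 3, 13 rose and 22 fell, where 52.1% of all genes passed, 26.4% higher and 25.7% lower. HSP90B1 rose from 285 and 297 to 1181 and 1421 CPM (log2 2.16 ± 0.12, adjusted p = 1.3e-16) and HSPH1 from 67.3 and 59.8 to 301 and 262 CPM (2.15 ± 0.14). HSPA5, at 389.6 and 415 to 467 and 414 CPM, did not pass. HSPB1, whose day 3 rise was called over all cells, did not pass within this class (0.18 ± 0.12, adjusted p = 0.22). HSPA2 fell from 87.9 and 92.6 to 18.5 and 17.6 CPM and HSPB8, not called over all cells, from 118 and 119 to 38.1 and 36.4 CPM (-1.66 ± 0.19). The count of members that fell dropped to 7 without the first uninjured sample and to 6 without the first day 3 sample.

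In differentiated-like cells at day 1, 26 of 53 tested members rose and 5 fell, where 55.9% of all genes passed, 28.5% higher and 27.4% lower. Under total counts 9 fell. DNAJA2 rose from 103 and 104 to 374 and 376 CPM (log2 1.86 ± 0.10) and HSP90B1 from 189 and 195 to 588 and 553 CPM (1.57 ± 0.10). HSPA5 rose from 399 and 369 to 817 and 748 CPM (1.03 ± 0.09). HSPB1 fell from 2954 and 3015 to 2420.1 and 2182 CPM (-0.37 ± 0.08) and HSPA2 from 13.4 and 17.0 to 2.63 and 3.22 CPM (-2.38 ± 0.39). HSPA2 passed the low-count filter in this class through its uninjured counts, so a fall was the likelier outcome. With a finer clustering (resolution 1.0) a differentiated-like class could be tested at day 3, but it is not the same class. It held 125 and 134 uninjured cells, while 343 and 301 others lay in a cluster led by PCK1 that stayed unnamed, and its day 3 cells were 285 and 279. In it, 25 of 53 members rose and 4 fell against the uninjured samples, where 36% of all genes passed, 19.3% higher and 16.7% lower. There 22 rose and 6 fell at day 1 (44.9% of all genes, 23.1% higher and 21.8% lower), and 11 rose and 14 fell from day 1 to day 3 (50.7% of all genes, 25.9% higher and 24.8% lower). At day 3 HSPH1 was 2.71, HSP90AB1 1.68 and HSP90AA1 1.17 higher on the log2 scale, HSPB1 0.43 higher, and HSPA5 was changed by -0.52.

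The cluster led by SYNE1, which stayed unnamed, held both uninjured and day 1 cells in number (219 and 177, then 190 and 166 cells). The test within it was added after the clusters were seen. Of 48 members tested, 16 rose and 4 fell at day 1, where 31.3% of all genes passed, 15.6% higher and 15.7% lower. HSP90B1 rose from 637 and 559 to 1234 and 1172 CPM (log2 1.01 ± 0.14) and BAG1 from 107 and 126 to 273 and 226 CPM (1.11 ± 0.18). DNAJA2 rose from 103 and 124 to 249 and 237 CPM and HSPA5 from 318 and 348 to 516 and 532 CPM (0.65 ± 0.15). HSPB1 fell from 1116 and 1093 to 619 and 642 CPM (-0.81 ± 0.14) and HSPA2 from 26.7 and 18.2 to 3.74 and 4.60 CPM (-2.39 ± 0.59). HSPA2 passed the low-count filter in this cluster through its uninjured counts, so a fall was the likelier outcome. Of the 6 CCT subunits tested 5 rose, and 9 of 12 immediate early genes fell. The count that rose was 10 without the first uninjured sample, and the count that fell was 1 without the first day 1 sample.

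**Figure D4:**
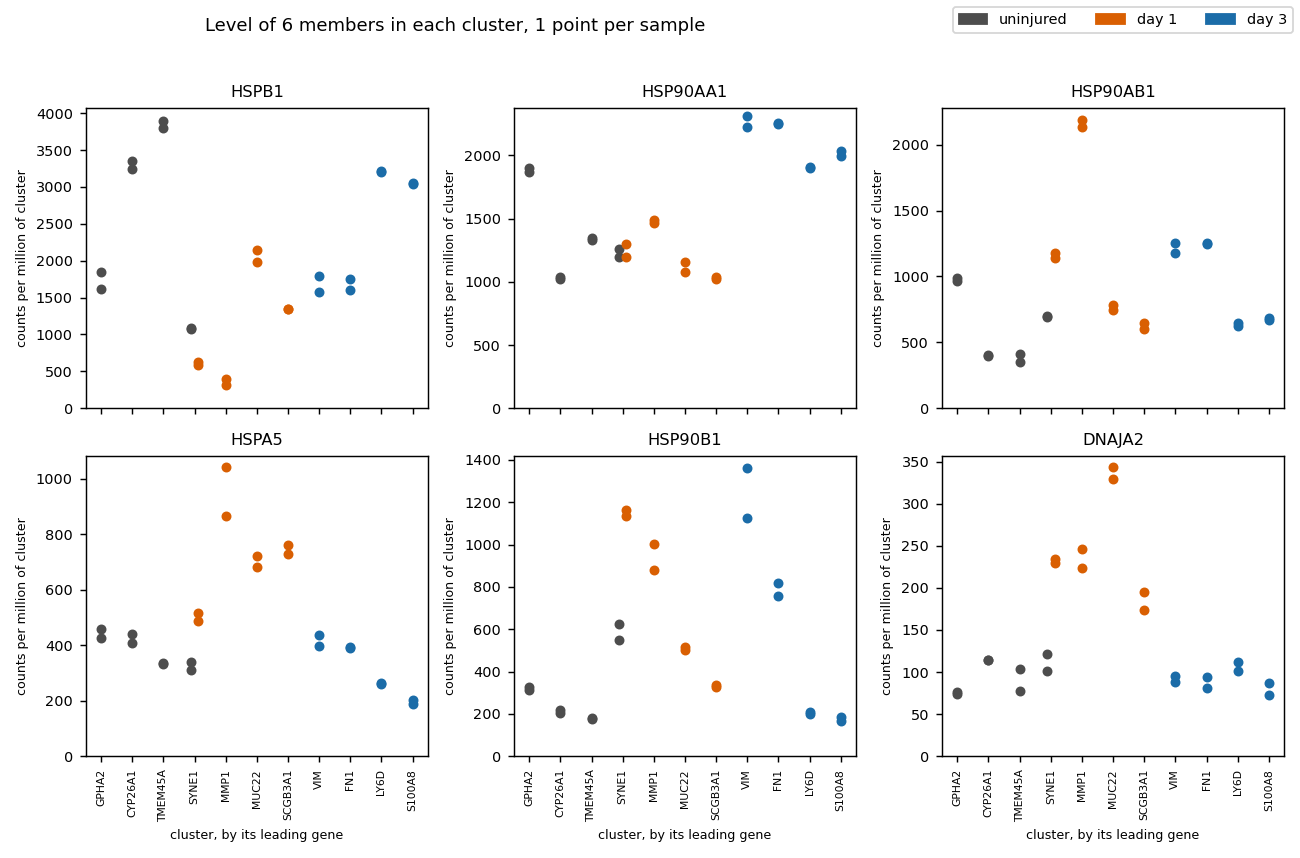
Levels of 6 members (unscaled CPM of the cluster's own counts, vertical axes) in each cluster (horizontal axes, by leading gene), coloured by group. Points are samples. HSPB1 is lowest at day 1 in the clusters led by MMP1 and SYNE1. HSP90B1 is highest in the VIM-led day 3 cluster and the SYNE1-led cluster at day 1, and HSPA5 is highest in the MMP1-led day 1 cluster.

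Levels differed among clusters of the same day. In unscaled CPM of a cluster's own counts, HSPB1 stood at 3800.0 and 3897 in the uninjured cluster led by TMEM45A, 3249 and 3352 in the differentiated-like one and 1617 and 1853 in the basal-like one. At day 1 it was 2140.4 and 1985 in the differentiated-like cluster and 397 and 317 in the MMP1-led basal-like cluster. HSP90AB1 had the reverse order, with 987 and 964 in uninjured basal-like cells against 401 and 397 in differentiated-like cells, and 2134 and 2189 in the MMP1-led cluster. HSP90B1 at day 3 was 1127 and 1361 in the VIM-led cluster and 198 and 207 in the LY6D-led one, and HSPA5 438 and 396 and 261 and 264. HSP90AA1 ranged from 1899.7 to 2312 over the 4 day 3 clusters, from 1018 to 1489 over the 4 clusters of day 1, and from 1019.8 to 1343 in the uninjured clusters other than the basal-like one, where it was 1864 and 1900.3. These are levels in clusters made from the same cells and carry no test.

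Whether the day 1 change differed between basal-like and differentiated-like cells was tested with a class by day term. It passed for 18 of 57 members, 10 with the larger log2 change in basal-like cells and 8 with the smaller, and for 22.9% of all genes, 12.2% larger and 10.7% smaller. Of 12 immediate early genes, 2 passed with the larger and 7 with the smaller change in basal-like cells. With all samples in the fit, the CCT subunits CCT2, CCT3, CCT5 and CCT8 and the HSP110 relative HSPA4 gained more in basal-like cells. The difference was 1.13 ± 0.19 for HSPA4 and 0.90 ± 0.15 for CCT5. The count of 10 was lower whichever sample was left out, and which members kept their call is not given here. HSPB1 fell further in basal-like cells, by a difference of -1.43 ± 0.10 (adjusted p = 1.9e-17). DNAJB4, a J protein with no call over all cells, went from 34.0 and 27.0 to 5.13 and 8.86 CPM in basal-like cells. In differentiated-like cells it was at 39.0 and 35 to 53.0 and 39.3 CPM, a difference of -2.47 ± 0.45. The count with the larger change fell to 6 at resolution 1.0, to 4 without the first uninjured sample and to 6 without the second day 1 sample.

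**Figure D5:**
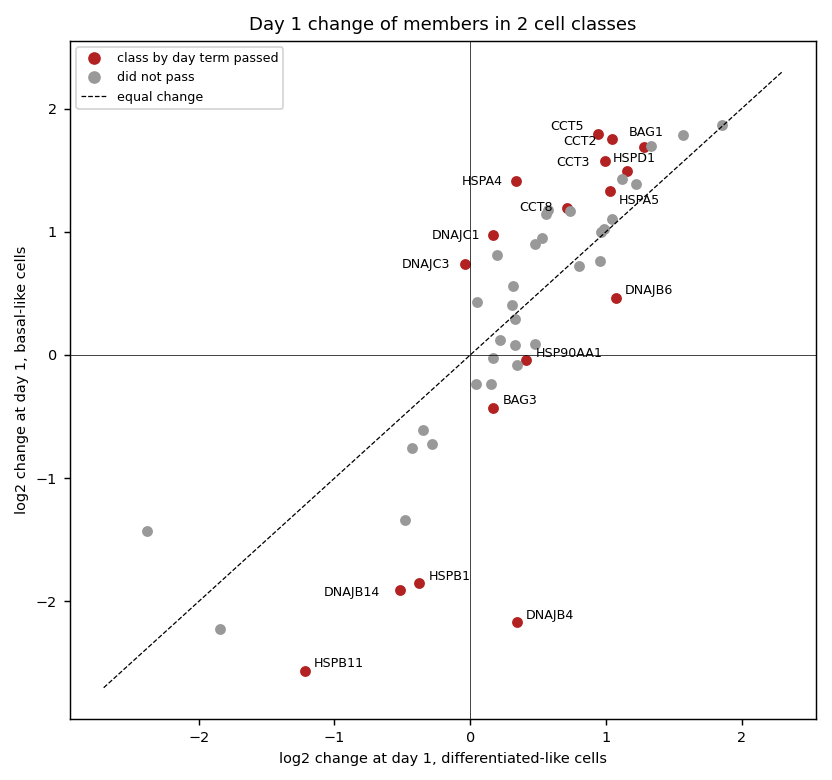
Day 1 log2 change of 50 members in basal-like cells (vertical axis) against that in differentiated-like cells (horizontal axis); red points passed the class by day test and the dashed line marks equal change. CCT5, CCT2 and HSPA4 lie above the line, and HSPB1 and DNAJB4 below it.

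Isoform counts were in tables of their own, which name isoforms in 2 ways. The uninjured samples and the first day 1 sample share 1 naming and were set side by side, with no replicate at day 1 and no test. Isoforms matching an annotated transcript in all splice junctions made up 52.1% and 52.9% of the members' isoform counts in the uninjured samples and 47.3% in the day 1 sample. The 3 genes named next were chosen after their values were seen. One annotated DNAJB1 isoform took 26.8% of the gene's isoform counts (95% Clopper-Pearson interval 24.7% to 29.1%) and 25.8% (23.8% to 27.7%) in the uninjured samples and 39.9% (37.1% to 42.7%) at day 1. An HSPA5 isoform with a splice site outside the annotation took 18.5% (16.6% to 20.5%) and 17.9% (16.1% to 19.8%), then 28.1% (26.6% to 29.7%) at day 1. An HSPA4 isoform of the same kind took 23.4% (18.5% to 28.8%) and 20.6% (16.3% to 25.5%), then 37.6% (32.7% to 42.8%). These were the 3 of 38 isoforms whose day 1 interval lay above both uninjured ones, so the separation restates how they were chosen. Of the others, 7 had a day 1 interval below both and 28 had neither, and in 1 of the 38 the uninjured intervals themselves lay apart. The 38 isoforms, of 19 members with a mean of at least 90 CPM, each took at least 10% of their gene's isoform counts in all 3 samples. These intervals cover counting error only.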

How the data were processed

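Gene and isoform tables of single corneal cells were deposited for 6 samples. Per the file headers and values, the authors' tables hold whole-number counts per gene or isoform and cell barcode. The labels name Cell Ranger without its version or role, and how reads became counts, and on which genome build, is not stated there. Members, compartments and pathway lists were chosen with earlier results of these data known.

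Counts were summed over barcodes per sample and tested with edgeR 4.0.16 (R 4.3.3), using filterByExpr, TMM scaling and the quasi-likelihood test on all 3 groups without a block, with Benjamini-Hochberg adjustment over all genes and a threshold of 0.05. Values are TMM-scaled CPM. The test was tested on simulated data. Clustering used scanpy 1.11.5 on 2000 variable genes without the members, 30 components, 15 neighbours and Leiden resolution 0.5. A class was tested where every sample had at least 50 of its cells. The class by day term was planned over all 3 groups and was run on 8 sums of the uninjured and day 1 samples, because differentiated-like cells were too few at day 3. Barcodes under 500 counts (68) and 66 called doublets were kept, and left out as an alternative. Named genes are all members, plus up to 3 genes of each pathway list and comparison with the largest changes among those that passed.

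Total counts were 3733442 to 4928103 per sample. Gene names were compared with RefSeq (T2T-MFA8v1.1), in which 63 of the 64 names were found. Promoter and protein sequences were not used here, so the planned motif description was not run.

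Same-numbered samples were checked for pairing: their deviations correlated over genes at 0.03, 0.05 and 0.02. The labels name no pairing. With 1 difference per group, these values cannot tell whether same-numbered samples share an animal or a run.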

Additional observations from a re-analysis of the deposited data

Results flagged for a closer look

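Each gene here is given because the test of the class by day difference found its day 1 change to differ between basal-like and differentiated-like cells (edgeR quasi-likelihood test over the uninjured and day 1 samples, 18 of 57 members, with 22.9% of all genes passing). The values are the log2 change in basal-like cells minus that in differentiated-like cells. Both classes are made of different clusters at the 2 times, and the part of that in these differences was not tested.

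With all samples in the fit, the difference was positive, with the larger change in basal-like cells, for 10 members. That count was lower whichever sample was left out, and also at the finer clustering. Which members kept their call is not given here, so the list holds for the fit to all samples only. HSPA4 stood at 1.13 (adjusted p = 4.3e-06), CCT5 at 0.90 (adjusted p = 4.6e-06), DNAJC1 at 0.86, DNAJC3 at 0.82, CCT2 at 0.76, CCT3 at 0.62, CCT8 at 0.53, BAG1 at 0.45, HSPD1 at 0.37 and HSPA5 at 0.34. Of these, DNAJC1 and DNAJC3 are ER J proteins, and 4 are subunits of the CCT ring.

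The difference was negative for 8 members, a count that also fell in some of the fits with a sample left out. HSPB1 stood at -1.43 (adjusted p = 1.9e-17), DNAJB4 at -2.47 (adjusted p = 2.1e-05), DNAJB14 at -1.34, HSPB11 at -1.32, DNAJB6 at -0.55, BAG3 at -0.55 and HSP90AA1 at -0.41. The fitted value for DNAJC27 was -6.55, but the gene had 0 counts in basal-like cells at day 1, so this number depends on the fit's prior count and is neither a size nor a bound.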

How the results depend on the processing

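Of 109 calls of single members over the 3 comparisons of all cells, DESeq2 lost 27 and scaling to total counts alone lost 14 and turned 8. Leaving out 1 sample lost 8 to 13, with the lone sample of its group assumed to vary like the others. Other settings lost at most 4. With total counts alone the members higher were 21 at day 1 and 14 at day 3, those lower at day 3 were 25, and those lower in differentiated-like cells were 9. With DESeq2 the members lower were 7 at day 1 and 5 at day 3. The 8 turned values were DNAJB9 -0.062, DNAJC17 -0.0002, DNAJC21 -0.042 and DNAJC3 -0.043 at day 1, and DNAJA2 -0.080, DNAJC17 -0.067, DNAJC9 -0.12 and HSPA4L -0.18 at day 3. Of the sums, the cytosolic ratio turned to 0.958 at day 1, and at day 3 the DNAJ ratio to 0.922, the BAG ratio to 0.834 and the ER ratio to 0.955. Scaling alone was changed in these fits. In the test of class by day, resolution 1.0 gave 6 members with the larger change. The cause was not tested.

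With 1 sample left out, counts of members higher ranged from 25 to 32 at day 1, 20 to 24 at day 3, 10 to 15 in the SYNE1-led cluster and 4 to 7 by class and day, and counts lower from 10 to 11, 7 to 9, 1 to 4 and 6 to 8. In basal-like cells 6 to 12 fell at day 3. A replicate block, although no pairing is known, gave 33 higher and 10 lower at day 1 and 22 and 8 at day 3. In basal-like cells it gave 27 and 11 at day 1. With 2 samples a group, low members such as HSPA6, HSPA12A and CCT6B rest on few counts. Other settings for differentiated-like cells at day 3 were not run at resolution 0.5, where the class held 6 and 4 cells.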

Other observations

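The share of a member's gene count that appeared in the isoform tables varied between samples, both between the 2 ways of naming isoforms and, within the Ensembl naming, between day 1 and day 3. For HSPB1, isoform counts came to 5.43% and 5.36% of the gene count in the uninjured samples and 6.52% in the first day 1 sample, against 87.7% in the second day 1 sample and 45.2% and 42.3% at day 3. For HSPA5 the shares were 92.7%, 92.4% and 91.0% in the first 3 of these samples, then 87.6%, 50.8% and 53.7%. For HSP90AA1 they were 70.7%, 68.1% and 68.9%, then 88.2%, 45.9% and 44.4%. The first 3 of these samples carry 1 naming and the last 3 the other. Levels of isoforms were not compared across the 2 namings.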
